A study of Mus musculus with 12 samples.

Results

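The 3 genes described here, Cyp2b10, Cyp2b9 and Cyp2b13, are the members of the Cyp2b family of cytochrome P450 enzymes that were read in mouse liver in this experiment. They were taken by symbol from the gene count tables of 12 livers, 3 of 24062 genes listed. The tables hold 5 genes of this family, and the other two, Cyp2b19 and Cyp2b23, had at most 2 reads and 1 read in any library. All libraries came from female C57BL/6J (B6) mice that arrived at 6 weeks of age, acclimated for 2 weeks and ate the control diet for 3 days before the start. At the start they were randomized to stay on this diet, which serves as the control, or to a matched diet with BIBB-515, an inhibitor of lanosterol synthase in the cholesterol pathway, at 55 mg/kg body weight, for 10 days. The study analysed 11 mice per diet, and 6 control mice, numbered 1 to 6, and 6 BIBB-515 mice, numbered 6 to 11, are analysed here. The mice were housed in groups, and which cage a mouse came from is not given in the sources used here.

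Cyp2b enzymes sit in the membrane of the endoplasmic reticulum of hepatocytes, take electrons from the reductase encoded by Por, and hydroxylate drugs, steroids and fatty acids. Cyp2b10 is the textbook target of CAR, the constitutive androstane receptor encoded by Nr1i3, which drugs such as phenobarbital move from the cytoplasm to the nucleus, where it binds DNA with RXR as a partner. PXR, encoded by Nr1i2, is a related drug-sensing receptor that shares many targets with CAR. Cyp2b9 and Cyp2b13 are better known as genes with higher expression in adult female than in male mouse liver, a pattern set by growth hormone. The comparison asks how much mRNA of each of these genes the liver held with and without dietary BIBB-515.

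The genes lie in a row on the plus strand of chromosome 7 (build mm10), each with 9 exons in the count tables. Cyp2b10 is at chr7:25897658-25926624, Cyp2b13 at chr7:26061495-26096196 and Cyp2b9 at chr7:26173409-26210660. A gap of 135 kb separates Cyp2b10 from Cyp2b13 and a gap of 77.2 kb separates Cyp2b13 from Cyp2b9, with no other gene of the tables in either gap. The 250 bases before each gene start are shown as a description, and their part in the diet differences was not tested. They are RefSeq sequences of build GRCm38.p6, plus strand, at chr7:25897408-25897657 for Cyp2b10, chr7:26173159-26173408 for Cyp2b9 and chr7:26061245-26061494 for Cyp2b13. Capitals mark AGGTCA, the half-site that nuclear receptors such as CAR and PXR recognise, searched on both strands.
Cyp2b10: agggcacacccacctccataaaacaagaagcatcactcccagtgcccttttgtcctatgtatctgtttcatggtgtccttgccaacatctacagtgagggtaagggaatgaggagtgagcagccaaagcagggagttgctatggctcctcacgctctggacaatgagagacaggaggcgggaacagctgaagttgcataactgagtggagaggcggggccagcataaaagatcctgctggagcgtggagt
Cyp2b9: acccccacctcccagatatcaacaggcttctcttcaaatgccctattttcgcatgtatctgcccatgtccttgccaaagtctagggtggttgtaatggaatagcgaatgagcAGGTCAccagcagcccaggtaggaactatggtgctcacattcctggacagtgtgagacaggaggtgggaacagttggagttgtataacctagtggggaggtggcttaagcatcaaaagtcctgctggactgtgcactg
Cyp2b13: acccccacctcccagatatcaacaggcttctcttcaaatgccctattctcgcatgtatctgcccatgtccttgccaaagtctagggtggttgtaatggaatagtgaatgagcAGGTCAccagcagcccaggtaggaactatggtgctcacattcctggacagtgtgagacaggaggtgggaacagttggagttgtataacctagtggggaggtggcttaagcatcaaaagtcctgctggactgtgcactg
The windows of Cyp2b9 and Cyp2b13 were identical at 248 of 250 positions (99.2%). They differ by the substitutions T48C and C104T, written with the base of Cyp2b9 first and counted from 1 at the 5′ end. The window of Cyp2b10 was 70.0% identical to each of them over 260 aligned positions, gaps included. Cyp2b9 and Cyp2b13 each held 1 half-site, which begins 138 bases before the gene start, and Cyp2b10 held none in this window. The windows of Cyp2b19 and Cyp2b23, which are not shown and whose genes were hardly read, also held 1 each. Of 32851 promoter windows of this length, 14.0% held the half-site on either strand. The direct repeat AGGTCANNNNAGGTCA, with 4 bases between the half-sites, was in 5 of the windows and in none of the 3 shown. Sequence farther from the gene starts was not searched.

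Cyp2b10 rose 15.8-fold with BIBB-515, Cyp2b9 did not differ beyond the spread between mice, and Cyp2b13 was lower by an amount that fell just short of the threshold. Of the 3 genes, 1 was called higher and 0 lower at a false discovery rate (FDR) of 0.05. Over all 12481 genes tested, 7.18% were called higher and 6.48% lower, or 13.7% in either direction. Values of the diets did not overlap for 1 of the 3 genes, as for 7.07% of all genes tested. All levels below are in CPM, the count of a gene scaled to a library of fixed size, after TMM scaling, a correction for library composition. The summed cell type markers are the exception and are in CPM without TMM scaling. The plot of each mouse's level shows these patterns.

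**Figure D1:**
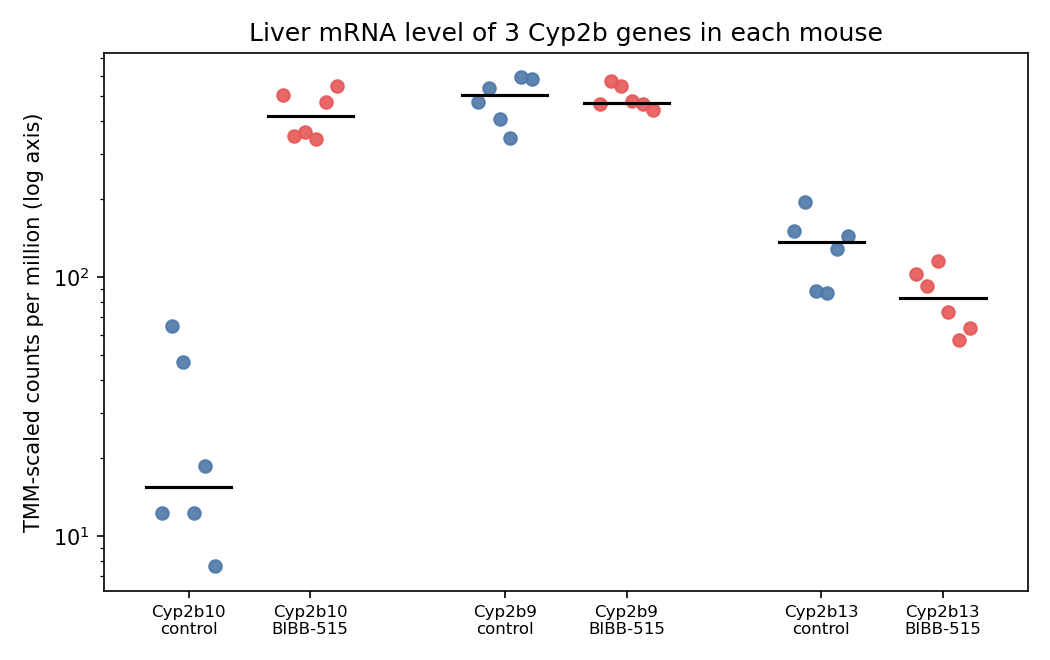
Level of Cyp2b10, Cyp2b9 and Cyp2b13 in the liver of each mouse, in TMM-scaled CPM on a log axis. Points are mice, 6 per diet, in the order of their numbers, and lines are medians. The BIBB-515 mice lie above every control mouse for Cyp2b10, overlap the control mice fully for Cyp2b9 and lie lower with overlap for Cyp2b13.

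Cyp2b10 was read at 12.3, 64.9, 47.0, 12.3, 18.7 and 7.67 CPM in control mice 1 to 6, with a median of 15.5 CPM. In BIBB-515 mice 6 to 11 it was read at 504, 351, 362, 340, 476 and 547 CPM, with a median of 419 CPM. The diets did not overlap, and the lowest BIBB-515 mouse was 5.24 times the highest control mouse. The means were 27.2 ± 23.3 CPM with the control diet and 430.0 ± 89.5 CPM with BIBB-515 (SD, n = 6 each). The log2 fold change was 3.98 (SE 0.47, 95% interval 2.98 to 4.99), with an FDR of 7.66e-05 in edgeR's quasi-likelihood test. An exact permutation test over all labelings of the 12 mice gave a two-sided p of 0.00216, the smallest it can give. The fitted fold of 15.8 had a 95% interval of 7.89 to 31.7. Only 5 of the genes tested had a larger fitted log2 fold change, among them genes close to 0 CPM in control mice.

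The control mice differed from each other in Cyp2b10 far more than the BIBB-515 mice did. Control mice 2 and 3 stood above the other control mice, and the highest control value was 8.46 times the lowest, against 1.61 times among BIBB-515 mice. The SD of log2 CPM was 1.21 among control mice and 0.30 among BIBB-515 mice, and 99.6% and 86.9% of the genes tested had a smaller SD in the same diet. The spread was larger than counting error. The lowest control library held 190 reads of Cyp2b10, with an exact 95% Poisson interval of 164 to 219 that covers counting error only, and the highest held 1794 reads. Leaving out any of the 12 mice in turn gave log2 fold changes of 3.80 to 4.46, all past the threshold.

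Cyp2b9 was read at 473, 539, 407, 345, 590 and 582 CPM in control mice 1 to 6, with a median of 506 CPM. In BIBB-515 mice 6 to 11 the values were 466, 571, 547, 477, 466 and 443 CPM, with a median of 472 CPM. The BIBB-515 values all lay within the range of the control values. The means of 489 ± 99.0 and 495 ± 51.2 CPM (SD, n = 6 each) gave a log2 fold change of 0.017 (SE 0.12, FDR 0.948, edgeR). Its 95% interval, -0.25 to 0.28, spans folds of 0.841 to 1.22, so a change of Cyp2b9 as large as that of Cyp2b10 lies far outside it. The exact permutation p was 0.786.

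Cyp2b13 was read at 151, 195, 88.7, 87.0, 129 and 144 CPM in control mice 1 to 6, with a median of 137 CPM. In BIBB-515 mice 6 to 11 it was read at 103, 92.7, 115, 73.4, 57.3 and 63.6 CPM, with a median of 83.0 CPM. The diets overlapped, with 3 BIBB-515 mice below every control mouse and 4 control mice above every BIBB-515 mouse. All 6 BIBB-515 mice were below the control mean of 132 ± 40.9 CPM, and their own mean was 84.2 ± 23.0 CPM (SD). The log2 fold change was -0.65 (SE 0.21, 95% interval -1.10 to -0.21), with an FDR of 0.0513 in edgeR, which misses the threshold. DESeq2 gave -0.65 with an FDR of 0.0137, and the exact permutation test of this gene alone gave p = 0.0303. Without control mouse 3, control mouse 4 or BIBB-515 mouse 8 the edgeR FDR was 0.0258, 0.0303 and 0.0358, and leaving out any other single mouse left it above 0.05.

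Ratios between the genes within a mouse were compared next, because a ratio does not depend on how a library is scaled. The log2 ratio of Cyp2b10 to Cyp2b9 ranged from -6.24 to -3.05 in control mice and from -0.70 to 0.30 in BIBB-515 mice. Its mean was higher by 4.35 with BIBB-515 (exact permutation test, p = 0.00216, adjusted over 3 ratios 0.00325). The ratio of Cyp2b10 to Cyp2b13 was higher by 5.03 on the log2 scale (exact permutation test, p = 0.00216, adjusted 0.00325). The ratio of Cyp2b9 to Cyp2b13 was higher by 0.68, with 5 of 6 BIBB-515 mice above every control mouse (exact permutation test, p = 0.00649, adjusted 0.00649). The 3 ratios thus each differed between the diets, that of Cyp2b9 to Cyp2b13 included. The diet difference of Cyp2b13 itself missed the threshold, with an FDR of 0.0513 in edgeR. What part the sequence before the gene starts has in these differences was not tested.

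Per kilobase of exon, Cyp2b9 was the most abundant of the 3 in control liver at 261 ± 52.7 CPM per kilobase, followed by Cyp2b13 at 70.6 ± 21.8 and Cyp2b10 at 14.5 ± 12.4 (SD, n = 6). This order held in 6 of 6 control mice, with log2 ratios between neighbours of 1.92 ± 0.30 and 2.66 ± 1.23 (SD). With BIBB-515 the levels per kilobase were 264 ± 27.3 for Cyp2b9, 229 ± 47.7 for Cyp2b10 and 44.9 ± 12.3 for Cyp2b13. Cyp2b9 and Cyp2b10 were then not separated, since Cyp2b9 was higher in 3 of 6 mice and the log2 ratio was 0.22 ± 0.42. Cyp2b10 was above Cyp2b13 in 6 of 6 BIBB-515 mice.

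As a share of the summed level of the 3 genes, Cyp2b10 was 4.18% ± 3.32 in control mice and 42.4% ± 7.30 in BIBB-515 mice. The share of Cyp2b9 was 75.6% ± 4.58 and 49.2% ± 5.95, and that of Cyp2b13 was 20.2% ± 3.25 and 8.34% ± 2.13, in the same order (SD, n = 6). The sum itself was 346 ± 71.8 CPM per kilobase with the control diet and 538 ± 34.0 with BIBB-515. The lowest BIBB-515 sum, 475, was above the highest control sum, 426.

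**Figure D2:**
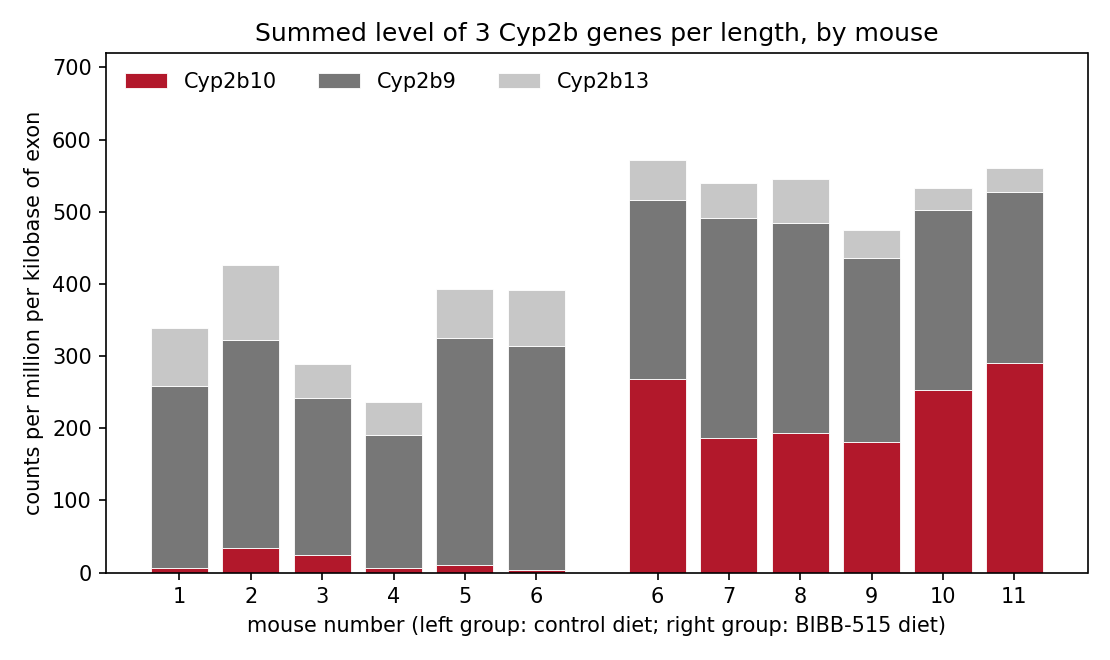
Level of the 3 genes per length in each mouse, stacked, in CPM per kilobase of exon. Each bar is a mouse, with control mice on the left and BIBB-515 mice on the right. The Cyp2b10 part is a thin base of 4.09 to 34.6 in control mice and 181 to 291 in BIBB-515 mice.

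Within a diet the 3 genes showed no relation that passed the test. The log2 levels of Cyp2b9 and Cyp2b13 had Pearson's r of 0.76 over the 6 control mice (exact permutation p = 0.106, adjusted over 6 relations 0.317), and Spearman's rho was 0.49 (exact permutation p = 0.356, adjusted 0.839). Without the 2 mice farthest from the median of Cyp2b9, r was -0.34, so the value rests on those mice. Cyp2b10 and Cyp2b9 had r of -0.76 over the 6 BIBB-515 mice (exact permutation p = 0.075, adjusted 0.317), with rho of -0.83 (exact permutation p = 0.0583, adjusted 0.35) and an r of -0.99 without the 2 mice farthest from the median of Cyp2b10. The other 4 relations had r between -0.41 and 0.65, with adjusted p of at least 0.4.

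The gene counts rest on all 9 exons of each gene. Cyp2b10 was 15.0 to 16.6 times higher with BIBB-515 in each of its exons, and the diets did not overlap in any of the 9. In Cyp2b9 the folds per exon were 0.987 to 1.05, and in Cyp2b13 they were 0.610 to 0.673, with overlap between the diets in every exon of both. Exon 1 had the lowest read density in all 3 genes and exon 8 the highest, in both diets.

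**Figure D3:**
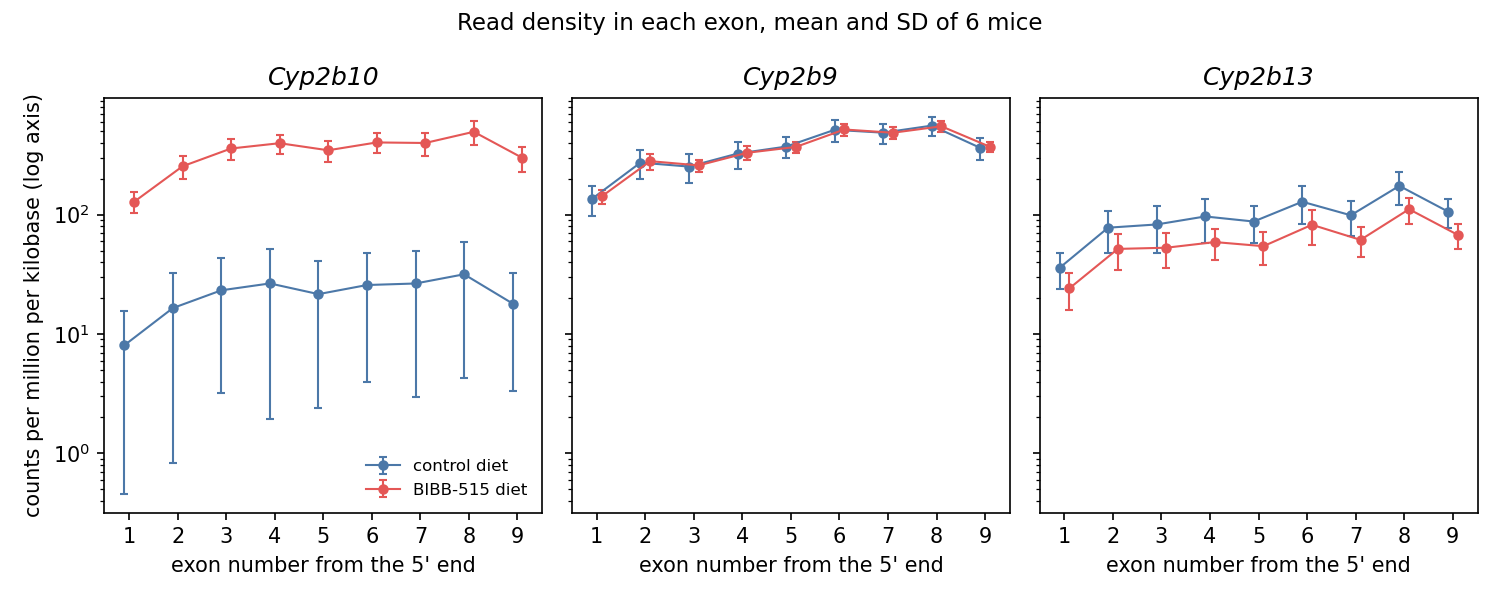
Read density in exons 1 to 9 of the 3 genes, in CPM per kilobase on a log axis. Points are means of 6 mice and bars are SD. The Cyp2b10 lines of the diets run apart at an even distance, those of Cyp2b9 coincide, and the BIBB-515 line of Cyp2b13 runs below the control line.

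The 3 genes are close copies, which bears on how reads were assigned. GENCODE transcripts of Cyp2b9 and Cyp2b13 were 89.2% identical over their aligned length, from 98.2% in exon 2 to 81.2% in exon 9. Cyp2b10 was 84.4% identical to Cyp2b9 and 83.9% identical to Cyp2b13. Each transcript has a coding part of 1473 bases. Of all 50-base words of a transcript, 9.69% of those of Cyp2b10, 11.2% of those of Cyp2b9 and 27.3% of those of Cyp2b13 also occurred in a transcript of another gene. For Cyp2b13, 10.8% of the words occurred in Cyp2b9 and 8.00% in Cyp2b10, and 13.8% in Gm45225, an unprocessed pseudogene at chr7:25981502-25988460, between Cyp2b10 and Cyp2b13. A word can occur in more than 1 of these genes. The tables left out reads that map to several places, so reads that hold nothing but such sequence are not in these counts. This touches Cyp2b13 most, and its level is the least certain of the 3. Tables made from primary alignments differed from those used here by at most 6 reads in a library for any of the 3 genes.

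The liver label was checked with cell type markers. The hepatocyte markers Alb, Apoa1, Ttr, Tat and Cps1 summed to 138462 to 150627 CPM in control libraries and 105091 to 120437 CPM in BIBB-515 libraries. Of the 5, 2 were called lower and 0 higher. Over all genes tested, 6.48% were called lower, the share to set beside this and the marker calls below. Such a sum is weighted toward its most abundant marker, so it does not show that the markers fell together. The largest gene of a library held 11.4% to 12.5% of its counts in control mice and 8.38% to 9.82% with BIBB-515. Summed markers of Kupffer, cholangiocyte, stellate, endothelial, lymphoid and fat cells overlapped between the diets, although 2 of the 5 stellate markers were called lower. The adipocyte markers Adipoq, Lep, Plin1 and Cfd had at most 3 reads in any library. The acinar pancreas markers summed to 10.1 to 20.4 CPM in control libraries and 9.26 to 9.99 CPM in BIBB-515 libraries, with Prss2, Cpa1, Pnlip and Amy2b at 3 reads or fewer and the 1 marker tested called lower. The part of these marker levels in the results was not tested, and in bulk liver fewer cells of a type and less RNA per cell cannot be told apart. The libraries held 22764819 to 31058370 counted reads, the common biological coefficient of variation was 0.143, and no replicate pair agreed within sampling noise.

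The receptors and their partner were measured alongside the Cyp2b genes. Nr1i3, the gene of CAR, was at 181 CPM with the control diet and 184 CPM with BIBB-515 (log2 fold change 0.021, SE 0.12, FDR 0.929). Nr1i2, the gene of PXR, had a log2 fold change of 0.29 (SE 0.10, FDR 0.0658). Its levels were 122 to 156 CPM with BIBB-515. Control mouse 2 was at 148 CPM, and the next control mouse, at 114 CPM, was below every BIBB-515 mouse. The overlap of the diets thus rests on control mouse 2, and its part in the missed threshold was not tested. Rxra, which encodes their dimer partner, had 0.067 (SE 0.11, FDR 0.724). These are mRNA levels, and the location or activity of the receptor proteins was not measured.

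Of 29 tested genes for the receptors, co-regulators, chaperones and kinases of the CAR pathway, 3 were called higher (7.18% of all genes tested were), 4 lower (6.48% of all genes) and 22 neither way. Their median log2 fold change was -0.063, against -0.014 over all genes tested. Egfr, the growth factor receptor whose signal keeps CAR in the cytoplasm, fell by 1.45 on the log2 scale (FDR 1.13e-05). Ppargc1a, a coactivator, fell by 0.79 (FDR 0.0139), while Ppp2r1a, a subunit of the phosphatase PP2A, rose by 0.26 (FDR 0.0128). The Ppargc1a value leans on control mouse 2, at 42.7 CPM against 25.2 CPM in the next control mouse, and its diets overlapped. The 7 calls are 24.1% of the list, against 13.7% of all genes tested, but their number was 3 to 6 when a mouse was left out. It went down to 3 without BIBB-515 mouse 8 and to 4 without control mouse 1 or 4 or BIBB-515 mouse 7, 9 or 11. Calls over all genes moved as well, from 1705 with every mouse to 1199 to 1865 with a mouse left out. Without BIBB-515 mouse 8 they were 1233.

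Cyp2b10 lay near the top of the known CAR and PXR targets, and Cyp2b9 and Cyp2b13 lay near the bottom. Of 38 other tested targets, 30 were called higher (78.9%, against 7.18% of all genes tested), 0 lower and 8 neither way. Their median log2 fold change was 1.31. The list was drawn up with earlier results of these data known, so this share is a description and no separate evidence. Cyp2c55, a P450, rose by 5.98, from 1.90 to 8.01 CPM in control mice to 257 to 388 CPM with BIBB-515. Gsta1, a glutathione transferase, rose by 6.38, but it was at 0.077 to 0.398 CPM in control mice, with 2 reads in the lowest library. It was thus kept in the test through the BIBB-515 group alone, and its fold cannot be ranked against that of Cyp2b10. Ces2a, a carboxylesterase, rose by 3.53 and Cyp3a11, the textbook PXR target, rose by 3.24. Cyp3a11 went from 1537 to 14544 CPM on average. Alas1, the rate-limiting enzyme of heme synthesis, had a log2 fold change of 0.35 (FDR 0.435).

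**Figure D4:**
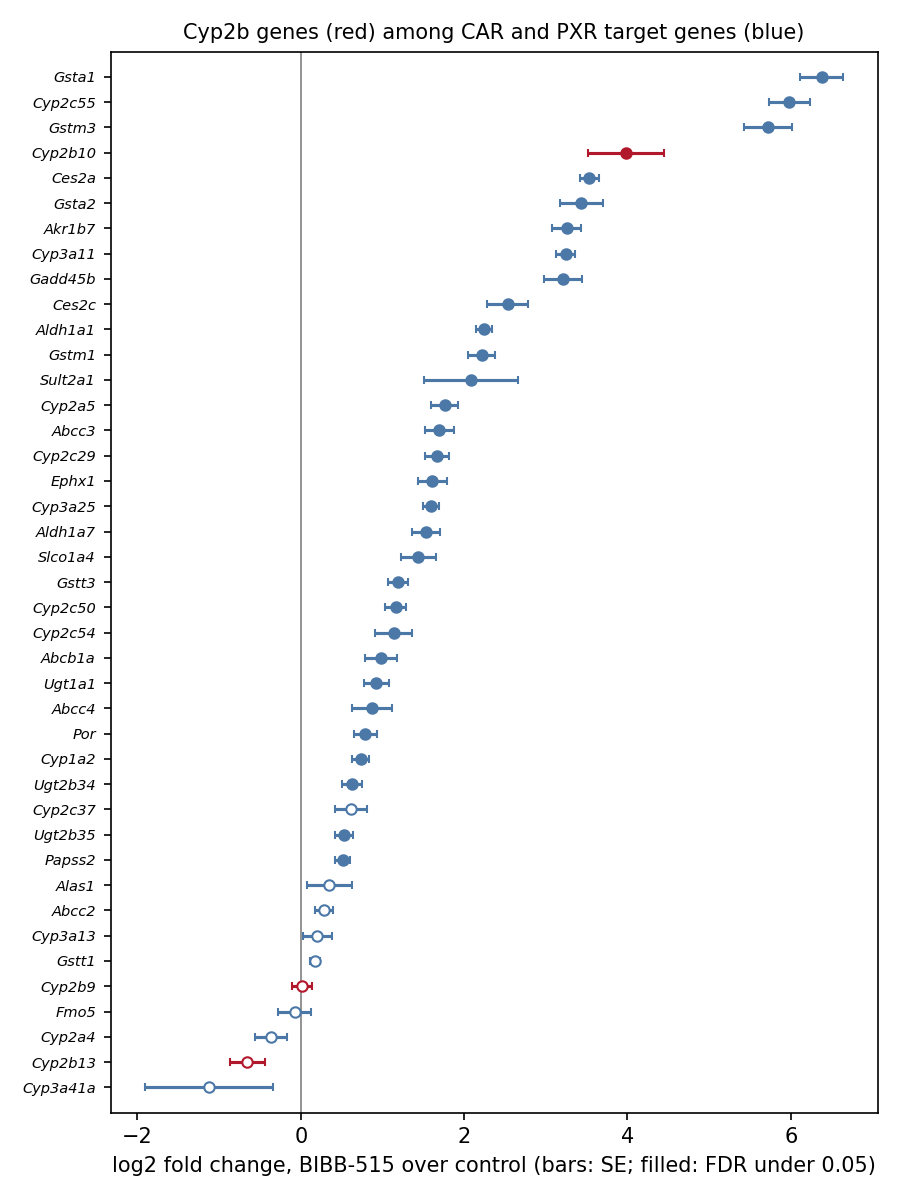
Log2 fold change with BIBB-515 for the 3 Cyp2b genes, in red, and 38 other CAR or PXR target genes, in blue. Bars are SE and filled points have an FDR under 0.05. Of the genes drawn, 3 lie above Cyp2b10 at 3.98. Gsta1 is among them, but with few reads in control mice its fold cannot be ranked against that of Cyp2b10. Cyp2b9 at 0.017 and Cyp2b13 at -0.65 are open points near the bottom.

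The spread of Cyp2b10 among control mice was set beside that of these targets, a look chosen after the values were seen. Control mouse 2, the highest for Cyp2b10, was also the highest control mouse for 13 of the 38 targets (34.2%), against 16.0% of all genes tested. Control mouse 3, the next highest for Cyp2b10, was the highest for 8 targets (21.1%, against 19.2% of all genes), and control mouse 5, which was not high for Cyp2b10, for 9 (23.7%, against 17.0%). Control mouse 6, the lowest for Cyp2b10, was the lowest for 10 targets (26.3%, against 13.0% of all genes), as was control mouse 1 (26.3%, against 14.7%), while control mouse 4, also low, was the lowest for 8 (21.1%, against 21.5%). The order of the control mice for Cyp2b10 was thus matched by the targets in some mice and not in others. Gsta2, named because it followed Cyp2b10 most closely over the 12 mice, was at 3.18 and 3.15 CPM in control mice 2 and 3. It was at 0.851 to 2.48 CPM in the other control mice. Because Gsta2 was chosen by its match to Cyp2b10 in these same mice, its match here is no separate evidence. Cyp3a11 was at 1592 and 1272 CPM in control mice 2 and 3, within or below the 1454 to 1770 CPM of the others, so the spread of Cyp2b10 was not shared by every target.

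Of the proteins that work with P450 enzymes, 4 were tested. Of these, 2 were called higher (7.18% of all genes tested were) and 0 lower (6.48% of all genes). Por and Alas1 are also counted among the CAR and PXR targets above. Por, the reductase that passes electrons to them, rose by 0.79 (SE 0.14, FDR 0.00265), and Pgrmc1, a heme-binding partner, rose by 0.73 (SE 0.08, FDR 5.09e-05).

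Among the other Cyp2 genes of chromosome 7, 9 were tested. Of these, 5 were called higher (7.18% of all genes tested were), 0 lower (6.48% of all genes) and 4 neither way. Their median log2 fold change was 0.36, against -0.014 over all genes tested. Cyp2a4 and Cyp2a5 are also counted among the CAR and PXR targets above. Cyp2a5, a coumarin hydroxylase, rose by 1.76, Cyp2f2 rose by 0.99, Cyp2g1 rose by 0.95 and Cyp2a12 rose by 0.36. These 4 genes start 911 to 1222 kb from the start of Cyp2b10, on the far side of Cyp2b9 and Cyp2b13. Cyp2b9 and Cyp2b13 thus lie between Cyp2b10 and these 4 genes, as the plot by distance shows.

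**Figure D5:**
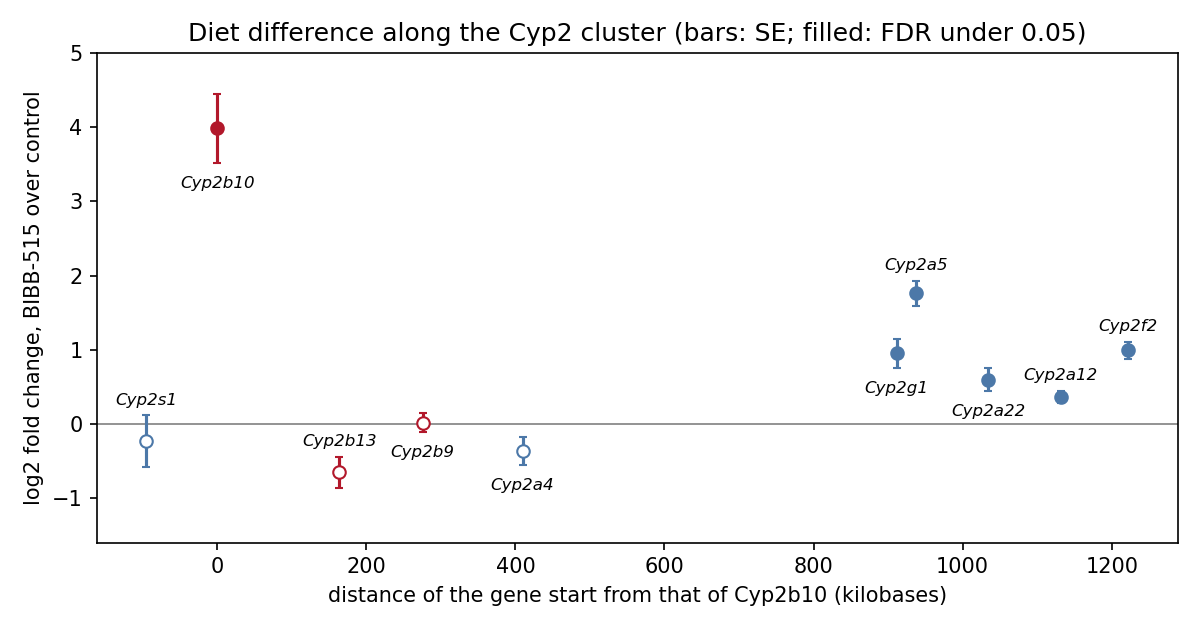
Log2 fold change with BIBB-515 for tested Cyp2 genes of the chromosome 7 cluster, by the distance of their start from that of Cyp2b10 in kilobases. Red points are the 3 Cyp2b genes, blue points other Cyp2 genes, bars are SE and filled points have an FDR under 0.05. Cyp2b13 at 164 kb and Cyp2b9 at 276 kb lie between Cyp2b10 and the called genes from 911 kb on.

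Because Cyp2b9 and Cyp2b13 are female-biased in mouse liver, other sex-biased genes were counted in these female mice. Of 19 tested female-biased genes, 2 were called higher, 6 lower and 11 neither way (42.1% called, against 13.7% of all genes tested), with a median log2 fold change of -0.51. Cyp2a4, Cyp3a41a and Sult2a1 are also counted among the CAR and PXR targets above, and Sult2a1 is among the genes called higher in both counts. A1bg, a plasma glycoprotein, fell by 3.37, Cux2, a female-specific repressor, fell by 2.08, and Cyp17a1, a steroid-cleaving P450, fell by 1.27, while Atp6v0d2, a proton pump subunit, rose by 0.98. The A1bg value leans on control mouse 5, at 828 CPM against 310 CPM in the next control mouse. Of 14 tested male-biased genes, 4 were called higher, 3 lower and 7 neither way, so that 7 of 14 were called against 13.7% of all genes tested, with a median of 0.038. Among them Slco1a1, an organic anion transporter, fell by 1.67, and Mup20, a urinary pheromone protein, rose by 0.91, Gstp1, a glutathione transferase, rose by 0.77 and Cyp7b1, an oxysterol hydroxylase, rose by 0.63.

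The genes whose log2 level followed each Cyp2b gene most closely were sought among 11166 genes, as a description over 12 mice that share diets and libraries. For Cyp2b10 they were Gsta2 and Akr1b7, both with Pearson's r of 0.98, and Trib3, also with 0.98, and these genes differed between the diets as well. For Cyp2b9 they were Retsat at 0.94, Ptpn1 at 0.93 and Slc4a4 at 0.93. For Cyp2b13 they were Becn1 at 0.94, Rnf138 at 0.91 and Serinc1 at 0.90.

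After each diet's mean was taken away, so that only differences among mice on the same diet were left, the closest genes to Cyp2b10 were Zxdc and Plce1, both at 0.95, and Suclg2 at 0.94. Those to Cyp2b9 were 5031439G07Rik and Psap, both at 0.95, and Retsat at 0.94. Those to Cyp2b13 were Coq9 at 0.92, Ermp1 at 0.91 and Becn1 at 0.91. For each of the 3 genes, over 82% of the genes searched had an r under 0.5 on this measure, and values this high at the top of 11166 genes over 12 mice have no test here. For Cyp2b10 the r rests mostly on the control mice, where the SD of its log2 CPM was 1.21, against 0.30 with BIBB-515.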

How the data were processed

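Liver RNA-seq of 12 mice was used. The authors deposited whole-number counts of reads per gene and per exon for each mouse, which the submitters' processing notes credit to STAR 2.5.3a and featureCounts of Subread 1.6.3 on build mm10, with strand ignored and multi-mapping reads left out. Groups and mouse numbers are those of the labels, and nothing in them ties a mouse to a cage or sequencing batch.

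A gene was kept where 2 or more of the 12 libraries reached 1 CPM (12481 of 24062). CPM were scaled by TMM, other than in the sums of cell type markers. The edgeR 4.0.16 quasi-likelihood model (R 4.3.3) had a single factor, diet, and Benjamini-Hochberg adjustment ran over all genes kept. Single values were compared by two-sided exact permutation of log2 CPM with a prior count of 0.5. On simulated counts the fit recovered 98.0% of 199 changed genes among 12365, with 2.99% false among its calls. This recovery was not split by size of change, and recovery at the size seen for Cyp2b13 was not tested. Alternatives were DESeq2 1.42.0, voom of limma 3.58.1, upper-quartile scaling, other filters, tables of primary alignments and each mouse left out.

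The genes and lists were chosen with earlier results of these data known. Genes named beside the 3 Cyp2b genes are the receptors, Por and Alas1, up to 4 of each list with the lowest p among those past the threshold, and the 3 most correlated genes by each measure. Genes shared between lists are named as well. A gene that falls under this rule but is not reported here stays in the counts. A planned search of 3 kb before each gene and a comparison of the proteins were not run, and the 250 bases before each start were searched in their place. The order of levels and the look at which control mouse was highest were added after the values were seen. No column of another sample was met.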

Additional observations from a re-analysis of the deposited data

Results flagged for a closer look

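In 98 groups of 6 mice, mostly for the genes named here, the gap between an end value and its nearest neighbour was divided by the range. It passed Dixon's 95% critical value in 5 groups. Chance gives about 4.9 if the groups are taken as independent, although they share mice. None of the 5 was one of the 3 Cyp2b genes. A1bg stood apart in control mouse 5 (0.645), Nr1i2 (0.636) and Ppargc1a (0.694) in control mouse 2, Gsta2 in BIBB-515 mouse 9 (0.696) and Psap in BIBB-515 mouse 8 (0.651). Control mouse 2 is also the highest control mouse for Cyp2b10.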

How the results depend on the processing

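For Cyp2b10 the log2 fold change was 3.98 to 4.39 under the 6 other models, scalings, filters and tables and 3.80 to 4.46 with each mouse left out, past the threshold each time. For Cyp2b9 it was 0.015 to 0.036 and -0.056 to 0.085, never past the threshold, and its sign turned to -0.022 without control mouse 3, -0.056 without control mouse 4, -0.028 without BIBB-515 mouse 7 and -0.014 without BIBB-515 mouse 8. For Cyp2b13 it was -0.65 to -0.64 and -0.76 to -0.51. DESeq2, at -0.65, put it past the threshold, as did leaving out control mouse 3 (-0.74), control mouse 4 (-0.74) or BIBB-515 mouse 8 (-0.76). The cause was not tested. The FDR over the 12 omissions ran from 0.0258 to 0.107. The 3 ratios kept their direction and their side of the threshold under every alternative run.

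The CAR regulator calls, 7 in all, were 3 to 6 with a mouse left out and 5 to 10 otherwise. Counts of the other lists stayed within 1.5 times. All genes called numbered 1199 to 1865 with a mouse left out and 1489 to 2244 otherwise. No paired analysis was possible because the diets share only 1 mouse number, 6. Counting error at the lowest library was 7.25% for Cyp2b10, 1.08% for Cyp2b9 and 2.54% for Cyp2b13, so spread between mice, not depth, limits these results. With 6 of the study's 11 mice per diet and cages unknown, p-values cover only the spread among these mice.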
